A study of Mus musculus with 8 samples.

Results

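The NF-κB subunits and their IκB regulators were followed through dextran sulfate sodium (DSS) colitis in mouse distal colon. The 10 genes were Rela, Relb, Rel, Nfkb1 and Nfkb2 (the subunits), Nfkbia, Nfkbib and Nfkbie (the IκB inhibitors), and Nfkbiz and Bcl3 (the nuclear IκB proteins). They were chosen by name among the 55418 gene symbols counted, and all 10 were among the 17529 genes with enough reads to test. RNA came from 8 C57BL/6 mice aged 8 to 10 weeks, with 2 mice in each of 4 groups: ΔNFκB DSS, ΔNFκB untreated, wild-type (WT) DSS and WT untreated. ΔNFκB is the submitters' name for mice in which the locus of NAIL, a long noncoding RNA, was altered; the sequence change itself is not stated in the labels. DSS, a polymer that damages the colon lining when drunk, was given at 3% for 4 days, with plain water over the next 4 days. By its title the study asks what NAIL does for p38 activation and NF-κB in inflammation, so the comparisons ask how the genes of this pathway responded to DSS in each genotype and whether the genotypes differed.

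NF-κB is a family of dimeric transcription factors that inflammatory signals release from inhibition. In resting cells IκB proteins hold the dimers in the cytoplasm; the IκB kinase (IKK) complex marks IκB for destruction, and dimers of RelA or c-Rel with the Nfkb1 product then enter the nucleus. A slower, noncanonical branch is driven by receptors such as the lymphotoxin β receptor and yields dimers of RelB with the processed Nfkb2 product. NF-κB induces several of its own subunits and inhibitors, Nfkbia above all, and in the gut it acts both in the epithelium and in recruited immune cells.

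The promoters of 4 members are shown because these genes carried much of the response described below: Rel and Nfkbia rose with DSS in both genotypes, Bcl3 rose most in ΔNFκB mice, and the DSS response of Nfkb2 differed between genotypes. Each is the RefSeq window of 250 bases before to 50 bases after the annotated start in GRCm38.p6, printed 5′ to 3′ on the gene's strand. Rel lies at chr11:23770920-23771219 on the minus strand, Nfkbia at chr12:55492598-55492897 on the minus strand, Bcl3 at chr7:19822706-19823005 on the minus strand and the first of 3 windows of Nfkb2 at chr19:46304487-46304786 on the plus strand. Capitals mark matches to the κB consensus, a 10-base motif searched on both strands, with overlapping matches joined.
Rel: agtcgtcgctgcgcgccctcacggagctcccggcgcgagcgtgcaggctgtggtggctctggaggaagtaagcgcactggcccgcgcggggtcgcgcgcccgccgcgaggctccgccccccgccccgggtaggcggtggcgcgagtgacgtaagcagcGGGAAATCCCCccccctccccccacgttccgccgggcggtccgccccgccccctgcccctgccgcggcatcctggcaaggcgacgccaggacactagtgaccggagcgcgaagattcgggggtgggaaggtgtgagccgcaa
Nfkbia: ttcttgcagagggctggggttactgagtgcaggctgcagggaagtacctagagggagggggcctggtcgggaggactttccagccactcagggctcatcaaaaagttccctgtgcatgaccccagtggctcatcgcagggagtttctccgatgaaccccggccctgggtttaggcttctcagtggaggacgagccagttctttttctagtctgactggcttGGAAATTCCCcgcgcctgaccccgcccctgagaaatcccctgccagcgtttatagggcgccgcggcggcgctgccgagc
Bcl3: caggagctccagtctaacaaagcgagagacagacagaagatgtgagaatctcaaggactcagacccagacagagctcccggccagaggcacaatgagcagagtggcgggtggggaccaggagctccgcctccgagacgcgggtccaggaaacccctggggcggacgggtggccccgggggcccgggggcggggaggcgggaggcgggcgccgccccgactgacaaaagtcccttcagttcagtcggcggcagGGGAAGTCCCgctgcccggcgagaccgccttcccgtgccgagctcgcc
Nfkb2: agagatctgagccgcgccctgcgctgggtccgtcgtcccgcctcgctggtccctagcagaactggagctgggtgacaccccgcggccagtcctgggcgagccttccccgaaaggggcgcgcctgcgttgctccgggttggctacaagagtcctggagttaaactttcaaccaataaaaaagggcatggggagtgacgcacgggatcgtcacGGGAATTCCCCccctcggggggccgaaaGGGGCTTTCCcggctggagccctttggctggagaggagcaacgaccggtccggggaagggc
The match in Rel began 92 bases before the start, that in Nfkbia 29 bases before it, and those in Nfkb2 39 and 11 bases before it, while the match in Bcl3 began 2 bases after it. Of the 10 members, 7 had a window in the table used, with 9 windows in all. A match lay in 7 of these 9 windows (those of Rel, Nfkb2, Nfkbia, Nfkbie and Bcl3), and in 8.46% of the 32851 windows of all genes (2779 windows). Nfkb2 alone gave 3 of the matched windows. Its windows 2 and 3 overlap and share a match, so the 9 windows are not independent. Counted by gene, 5 of the 7 members with a window had a match. The 8.46% counts windows and not genes, so it is no background for that count. The windows of Rela and Nfkbib held no match. A match describes letters in a window and not a site bound in these mice. Relb, Nfkb1 and Nfkbiz are not shown.

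Libraries held 9229861 to 16935961 counts. Levels are in CPM, read counts scaled to the TMM-adjusted library size. Sex, judged by the sum of Y-linked transcripts, was uneven: the 4 DSS mice were female, as was replicate 1 of the WT untreated group (at most 0.183 CPM), whereas replicate 2 of that group and the ΔNFκB untreated pair were male (233 to 248 CPM). DSS and sex therefore cannot be told apart in ΔNFκB mice without borrowing from WT mice, and the genotypes after DSS were compared among females. Only the WT untreated group held both sexes. A term for sex added to the fit (a sex term) was thus set by its 1 female and 1 male mouse. That female and male also differed in summed B cell markers (5.75 and 121 CPM) and smooth muscle markers (6624 and 3376 CPM), so a sex term cannot separate sex from such differences. Markers of colon epithelium, the labelled tissue, were abundant in every library (13 markers summing to 10374 to 26234 CPM). Cell type markers moved with the groups. The 10 neutrophil markers summed to 81.8 to 84.0 CPM in ΔNFκB DSS, 2.44 to 9.62 in ΔNFκB untreated, 355 to 441 in WT DSS and 2.79 to 3.15 in WT untreated mice, and Retnlg and Mmp8 had no count in WT untreated mice. The 8 smooth muscle markers, all called lower with DSS in both genotypes, summed to 869 to 1251 CPM in DSS libraries and 3376 to 6624 CPM in untreated ones. Of all genes, 19.2% were called lower with DSS in ΔNFκB and 18.8% in WT mice. B cell markers varied from mouse to mouse within groups, with sums of 162 and 3.92 CPM in ΔNFκB DSS, 146 and 42.7 in ΔNFκB untreated, 340 and 145 in WT DSS and 5.75 and 121 in WT untreated mice. Their part in the results below was not tested, and in whole tissue fewer cells of a type and less RNA per cell cannot be told apart.

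With DSS, 7 of the 10 members rose in ΔNFκB mice (Rela, Rel, Nfkb1, Nfkbia, Nfkbib, Nfkbiz and Bcl3), 1 fell (Relb) and 2 did not pass the test (Nfkb2 and Nfkbie). In WT mice 9 rose, none fell and Nfkbib did not pass. A call is an adjusted p under 0.05 in edgeR's quasi-likelihood test with Benjamini-Hochberg adjustment over all genes. Among all genes tested, 35.4% passed in ΔNFκB mice (16.2% rose and 19.2% fell) and 36% passed in WT mice (17.3% rose and 18.8% fell). The DSS and untreated mice did not overlap for any of the 10 members in either genotype, as for 71.7% of all genes in ΔNFκB and 71.4% in WT mice. The median log2 fold change of the members was 0.76 in ΔNFκB mice, beside -0.04 for all genes, and 0.79 in WT mice, beside 0.00 for all genes.

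**Figure D1:**
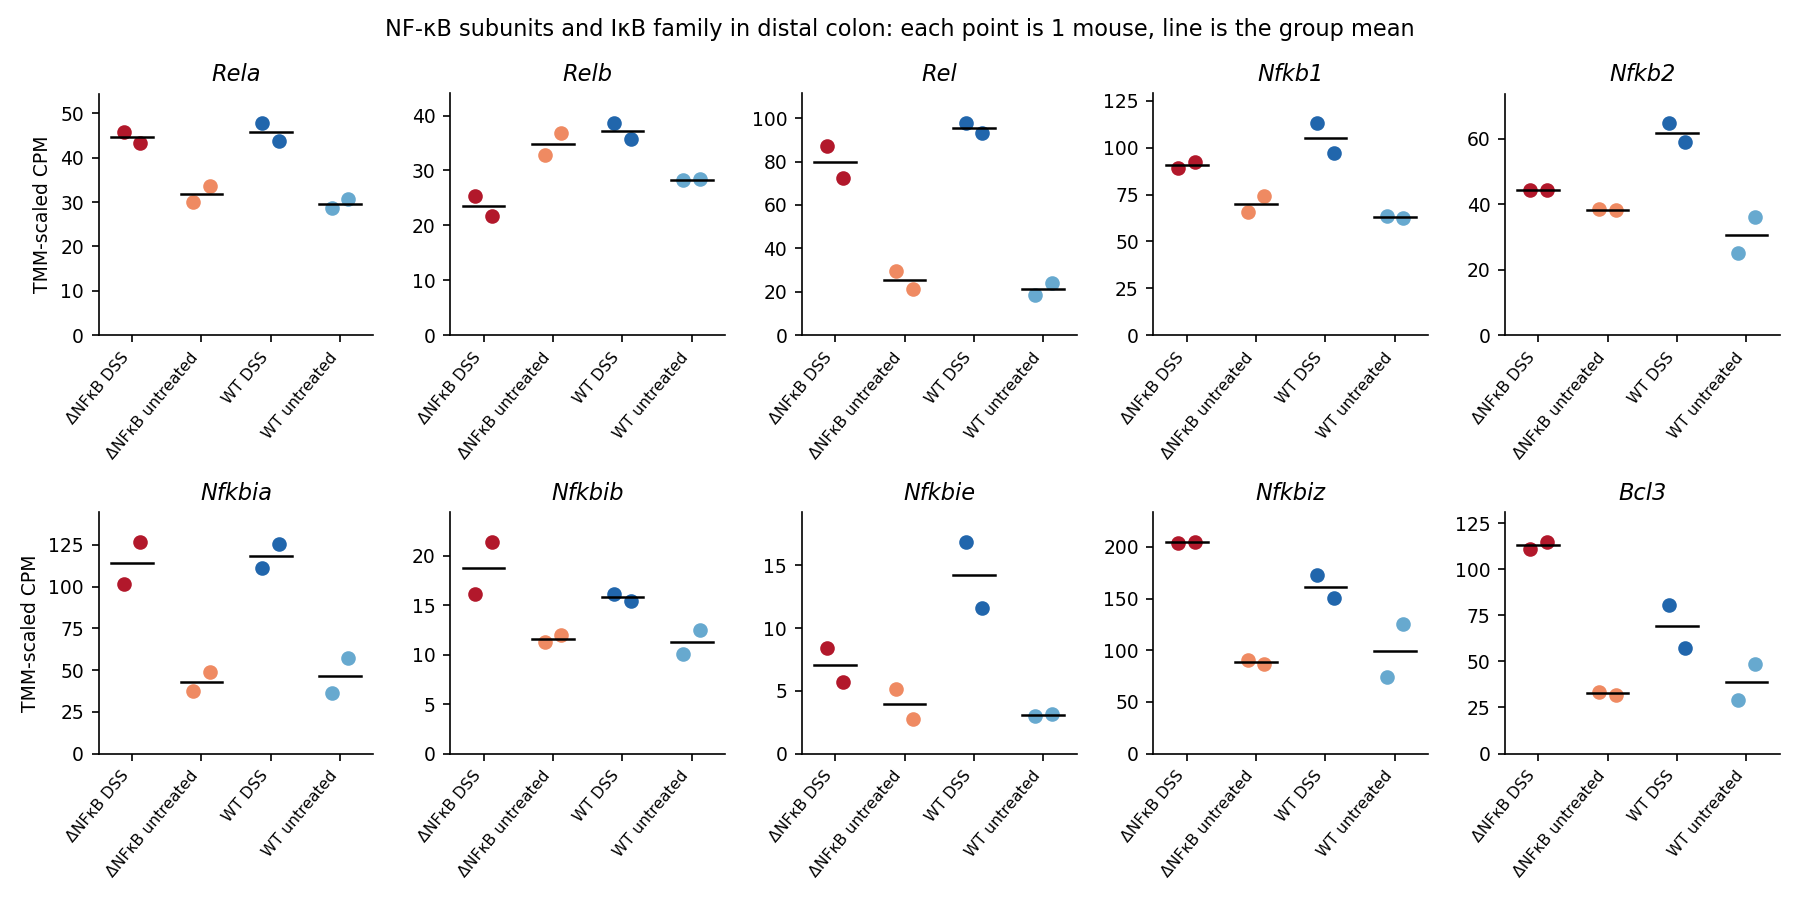
TMM-scaled CPM of each of the 10 members (y axis, starting at 0) in the 8 mice, grouped on the x axis as ΔNFκB DSS, ΔNFκB untreated, WT DSS and WT untreated; each point is 1 mouse and each line the group mean. Relb is the member whose ΔNFκB DSS mice lie lowest (25.4 and 21.6 CPM), while its WT DSS mice (38.6 and 35.8 CPM) overlap the ΔNFκB untreated mice (32.9 and 36.9 CPM).

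Among the subunits of the canonical branch, Rel changed most. Rel encodes c-Rel, a transactivating subunit best known from lymphocytes and myeloid cells. In ΔNFκB mice Rel had 87.4 and 72.3 CPM with DSS, against 29.5 and 21.2 CPM untreated, and in WT mice 97.7 and 93.0 CPM with DSS, against 18.6 and 24.1 CPM untreated. All 4 DSS mice lay above all 4 untreated mice. The log2 fold change was 1.66 ± 0.19 in ΔNFκB mice (adjusted p 0.000608) and 2.16 ± 0.19 in WT mice (adjusted p 0.000235), where ± is the SE of the fit, and both calls held under all 19 alternatives tried. The difference of the DSS effects on Rel, ΔNFκB minus WT, was -0.50 ± 0.27 and did not pass (adjusted p 0.213, edgeR). Rela encodes RelA (p65), the main transactivating subunit. It had 45.9 and 43.3 CPM with DSS, against 30.0 and 33.5 CPM untreated, in ΔNFκB mice, and 47.8 and 43.8 CPM with DSS, against 28.6 and 30.7 CPM untreated, in WT mice. The DSS mice were higher in both genotypes, by 0.49 ± 0.12 in ΔNFκB mice (adjusted p 0.0143) and 0.63 ± 0.12 in WT mice (adjusted p 0.00542). The difference for Rela was -0.14 ± 0.17 and did not pass (adjusted p 0.592, edgeR). In ΔNFκB mice the Rela call was lost with a sex term (0.59, adjusted p 0.0836), without ΔNFκB DSS replicate 1 (0.46, adjusted p 0.0870) and without ΔNFκB untreated replicate 1 (0.43, adjusted p 0.0689).

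Nfkb1 encodes the precursor of p50, the DNA-binding partner of RelA and c-Rel. It had 89.1 and 92.2 CPM with DSS, against 65.5 and 74.3 CPM untreated, in ΔNFκB mice, and 113 and 97.4 CPM with DSS, against 63.4 and 62.3 CPM untreated, in WT mice. The rise was 0.38 ± 0.12 in ΔNFκB mice (adjusted p 0.0352) and 0.74 ± 0.12 in WT mice (adjusted p 0.00234). The difference for Nfkb1 was -0.37 ± 0.16 and did not pass (adjusted p 0.147, edgeR). The WT call held under all 19 alternatives. The ΔNFκB call was lost under 6: upper quartile factors (0.32), DESeq2 (0.40), a sex term (0.35), and without ΔNFκB DSS replicate 1 (0.41), ΔNFκB DSS replicate 2 (0.38) or ΔNFκB untreated replicate 1 (0.30).

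Relb and Nfkb2, the subunits of the noncanonical branch, passed the test of a difference between the DSS effects of the genotypes, 2 of 10 members against 17.7% of all genes, a share near the background. Relb encodes RelB, which pairs with the processed Nfkb2 product. In ΔNFκB mice Relb had 25.4 and 21.6 CPM with DSS, against 32.9 and 36.9 CPM untreated, and in WT mice 38.6 and 35.8 CPM with DSS, against 28.2 and 28.4 CPM untreated. The DSS mice were thus the lower ones in ΔNFκB mice and the higher ones in WT mice. Relb fell by 0.57 ± 0.13 on the log2 scale with DSS in ΔNFκB mice (adjusted p 0.0120) and rose by 0.40 ± 0.13 in WT mice (adjusted p 0.0444). The difference of the DSS effects, ΔNFκB minus WT, was -0.96 ± 0.19 (adjusted p 0.0152). Both members past this test had a negative difference, as did 9.06% of all genes, while 8.61% had a positive one. With a sex term that difference was -0.96 (adjusted p 0.0204), and it ended as a call without ΔNFκB DSS replicate 2 (-0.85, adjusted p 0.0724) and without WT DSS replicate 1 (-0.89, adjusted p 0.0504).

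Of the 2 DSS effects on Relb, the WT one was the less certain. The ΔNFκB call was lost with a sex term (-0.56, adjusted p 0.133), without ΔNFκB DSS replicate 2 (-0.43, adjusted p 0.111) and without ΔNFκB untreated replicate 2 (-0.47, adjusted p 0.0709). The WT call was lost under 10 of 19 alternatives, with values of 0.33 to 0.44 and adjusted p up to 0.198. Among these were a replicate block (0.40, adjusted p 0.0547), a sex term (0.40), DESeq2 (0.40) and leaving out ΔNFκB DSS replicate 1 (0.38), WT DSS replicate 1 (0.33), WT DSS replicate 2 (0.44), WT untreated replicate 1 (0.42) or WT untreated replicate 2, the male (0.43). Every alternative kept the sign of both DSS effects and of their difference.

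Nfkb2 encodes p100, which restrains RelB as an IκB-like precursor and is processed to p52. It had 44.4 and 44.4 CPM with DSS, against 38.6 and 38.2 CPM untreated, in ΔNFκB mice, and 64.8 and 59.0 CPM with DSS, against 25.1 and 36.1 CPM untreated, in WT mice. Nfkb2 rose by 1.01 ± 0.17 in WT mice (adjusted p 0.00298), a call that held under all 19 alternatives, and stood at 0.21 ± 0.17 in ΔNFκB mice (adjusted p 0.356). The DSS effects differed by -0.80 ± 0.23 (adjusted p 0.0490). That call was lost under 10 of 18 alternatives: RLE factors (-0.79, adjusted p 0.0526), DESeq2 (-0.79), a replicate block (-0.81, adjusted p 0.0534), a sex term (-0.56, adjusted p 0.0510), and without ΔNFκB DSS replicate 1 (-0.78) or 2 (-0.80), ΔNFκB untreated replicate 1 (-0.81) or 2 (-0.82), or WT DSS replicate 1 (-0.72) or 2 (-0.86). With a sex term Nfkb2 passed the test in ΔNFκB mice too (0.74, adjusted p 0.0320). Of its exon bases, 18.1% overlap Psd and AC114539.1 on the other strand, and the strand setting of the counting is not given in the sources used here, so reads there could belong to either gene.

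**Figure D2:**
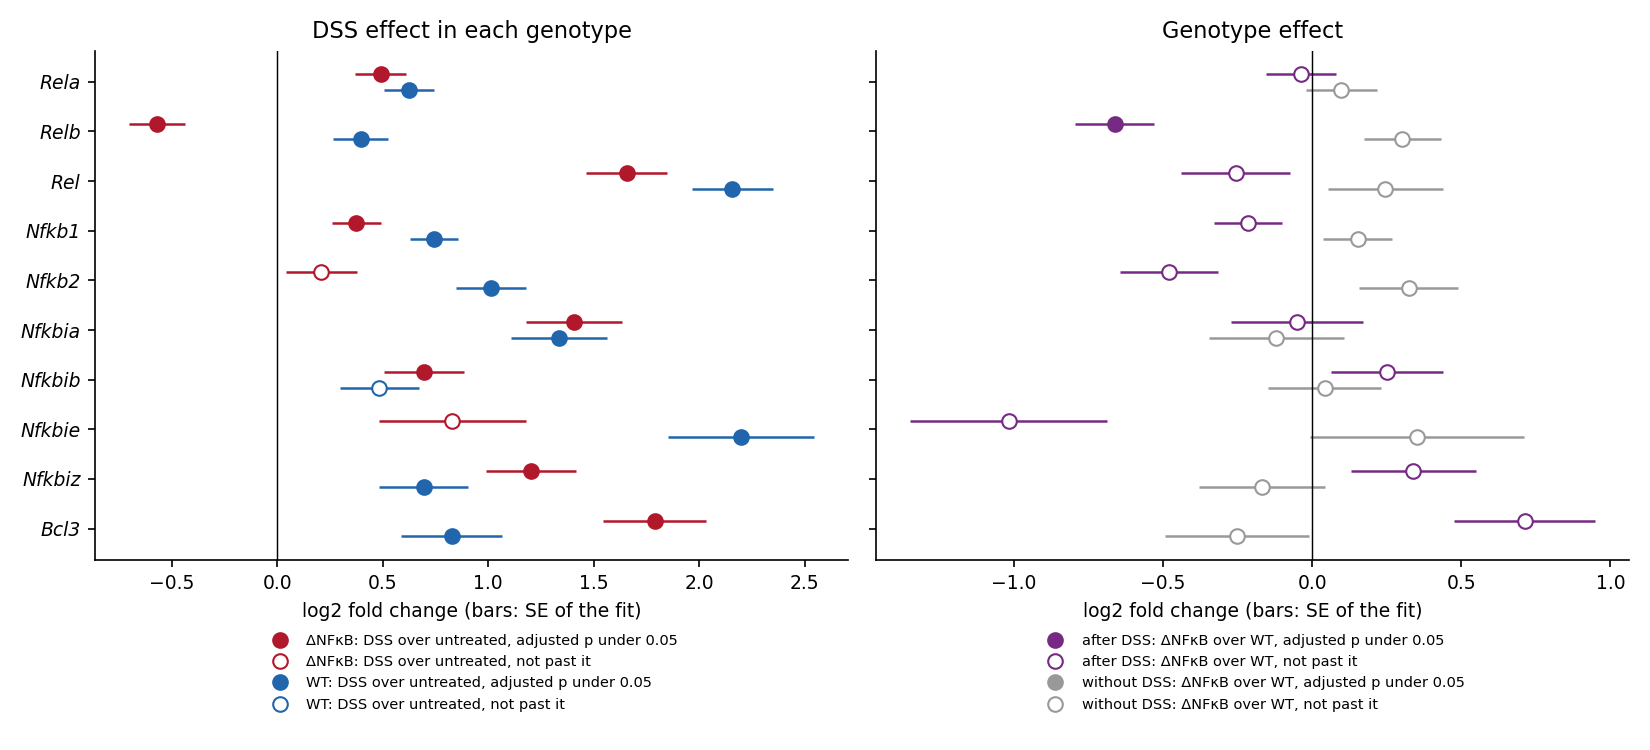
Log2 fold change (x axis, bars are the SE of the fit) of each member (y axis). The left panel gives DSS over untreated in ΔNFκB (red) and WT (blue) mice and the right panel ΔNFκB over WT after DSS (purple) and without DSS (grey); filled points passed the test at adjusted p under 0.05. Relb is the member with a filled point left of 0 in ΔNFκB mice (-0.57) and after DSS (-0.66).

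Of the IκB inhibitors, Nfkbia was called higher with DSS in both genotypes, Nfkbib in ΔNFκB mice and Nfkbie in WT mice. None of the 3 passed the test of a difference between the DSS effects of the genotypes. For Nfkbia that difference was 0.07 ± 0.32 (adjusted p 0.894, edgeR). Nfkbia encodes IκBα, the rapidly resynthesised inhibitor that ends NF-κB signalling. It had 102 and 127 CPM with DSS, against 37.4 and 48.8 CPM untreated, in ΔNFκB mice, and 111 and 125 CPM with DSS, against 36.3 and 57.1 CPM untreated, in WT mice. The 4 DSS mice all lay above the 4 untreated mice. Nfkbia rose by 1.41 ± 0.23 in ΔNFκB mice (adjusted p 0.00250) and 1.34 ± 0.23 in WT mice (adjusted p 0.00339), and both calls held under all 19 alternatives, with values of 1.24 to 2.06 in ΔNFκB and 1.08 to 1.73 in WT mice.

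Nfkbie encodes IκBε, an inhibitor of RelA and c-Rel dimers, and was the least abundant member at 34 to 175 reads per library. It had 8.40 and 5.67 CPM with DSS, against 5.13 and 2.77 CPM untreated, in ΔNFκB mice, and 16.9 and 11.6 CPM with DSS, against 3.03 and 3.15 CPM untreated, in WT mice. WT DSS mice stood above all others. The log2 fold change was 0.83 ± 0.35 in ΔNFκB mice (adjusted p 0.0964) and 2.20 ± 0.35 in WT mice (adjusted p 0.00251, held under all 19 alternatives), and the difference of -1.37 ± 0.49 did not pass (adjusted p 0.0857). In ΔNFκB mice Nfkbie passed with a replicate block (0.85, adjusted p 0.0423) and without ΔNFκB untreated replicate 1 (1.36, adjusted p 0.0408), and its difference passed without ΔNFκB untreated replicate 2 (-1.75, adjusted p 0.0462). The ΔNFκB value was 0.53 without ΔNFκB DSS replicate 1 and 0.47 without ΔNFκB untreated replicate 2, and the difference was -0.87 without ΔNFκB untreated replicate 1.

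Nfkbib encodes IκBβ, a slower inhibitor of the same dimers. It had 16.2 and 21.4 CPM with DSS, against 11.3 and 12 CPM untreated, in ΔNFκB mice, and 16.1 and 15.5 CPM with DSS, against 10.1 and 12.5 CPM untreated, in WT mice. It rose by 0.69 ± 0.19 in ΔNFκB mice (adjusted p 0.0229) and stood at 0.49 ± 0.19 in WT mice (adjusted p 0.0770). The difference of the DSS effects was 0.21 ± 0.27 and did not pass (adjusted p 0.606, edgeR). The ΔNFκB call was lost with a sex term (1.0, adjusted p 0.0611) and without ΔNFκB DSS replicate 2 (0.51, adjusted p 0.140), ΔNFκB untreated replicate 1 (0.67, adjusted p 0.0933) or ΔNFκB untreated replicate 2 (0.75, adjusted p 0.0632). Ccer2 and Sirt2 on the other strand overlap 16.4% of its exon bases.

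The nuclear IκB genes stood highest in ΔNFκB DSS mice. Bcl3 encodes a nuclear IκB that binds p50 and p52 homodimers on DNA. It had 111 and 115 CPM with DSS, against 33.6 and 31.8 CPM untreated, in ΔNFκB mice, and 80.7 and 57.4 CPM with DSS, against 29.0 and 48.7 CPM untreated, in WT mice. The rise was 1.79 ± 0.24 in ΔNFκB mice (adjusted p 0.00123) and 0.83 ± 0.24 in WT mice (adjusted p 0.0286). The ΔNFκB call held under all 19 alternatives; the WT call was lost when only the 2 WT groups were fitted (0.83, adjusted p 0.0702) and without ΔNFκB DSS replicate 1 (0.82), WT DSS replicate 1 (0.55) or WT untreated replicate 1 (0.53). The difference of 0.96 ± 0.34 did not pass (adjusted p 0.0820); it passed with DESeq2 (0.98), without a count filter (1.0), with a sex term (1.29) and without WT untreated replicate 1 (1.28), and was smaller without WT untreated replicate 2, the male (0.53, adjusted p 0.199). Without that male the WT rise was 1.28 (adjusted p 0.0050), and with a sex term it was 1.25. Gm16175 on the other strand overlaps 6.5% of the exon bases of Bcl3.

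Nfkbiz encodes IκBζ, a nuclear co-regulator needed for a subset of NF-κB targets. It had 204 and 205 CPM with DSS, against 90.5 and 87.1 CPM untreated, in ΔNFκB mice, and 173 and 151 CPM with DSS, against 74.4 and 125 CPM untreated, in WT mice. The WT untreated mice differed from each other by more than any other pair. Nfkbiz rose by 1.2 ± 0.21 in ΔNFκB mice (adjusted p 0.00375, held under all 19 alternatives) and by 0.70 ± 0.21 in WT mice (adjusted p 0.0342). The WT call was lost when only the 2 WT groups were fitted (0.70, adjusted p 0.0808) and without ΔNFκB DSS replicate 1 (0.68) or 2 (0.72), or WT DSS replicate 1 (0.58) or 2 (0.78); the rise was 1.15 (adjusted p 0.00124) without WT untreated replicate 2, the male, and 0.40 (adjusted p 0.0432) without WT untreated replicate 1. With a sex term the rises were 1.95 in ΔNFκB and 1.12 in WT mice. The difference of DSS effects for Nfkbiz was 0.51 (adjusted p 0.258); it passed with a sex term (0.83, adjusted p 0.0136) and without WT untreated replicate 1 (0.82, adjusted p 0.0127), and was 0.072 (adjusted p 0.790) without WT untreated replicate 2.

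After DSS, among females, Relb was the member that differed between genotypes. It averaged 23.5 ± 2.66 CPM in ΔNFκB DSS mice and 37.2 ± 1.99 CPM in WT DSS mice (SD, n = 2 each), and the log2 fold change of ΔNFκB over WT was -0.66 ± 0.13 (adjusted p 0.0134). Of all genes, 19.9% passed (8.29% higher and 11.6% lower in ΔNFκB mice), so 1 lower of 10 members is near the background. The mice of the genotypes did not overlap for 8 members, all but Rela and Nfkbia, as for 68.1% of all genes. The call for Relb was lost without ΔNFκB DSS replicate 2 (-0.58, adjusted p 0.107), WT DSS replicate 1 (-0.59, adjusted p 0.0690) or WT DSS replicate 2 (-0.71, adjusted p 0.0590).

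Another 3 members lay near the threshold after DSS. Nfkb2 stood at -0.48 ± 0.17 (adjusted p 0.0741), Nfkbie at -1.02 ± 0.33 (adjusted p 0.0625) and Bcl3 at 0.71 ± 0.24 (adjusted p 0.0664). When only the DSS groups were fitted these 3 passed as well, at -0.53, -1.07 and 0.66 (adjusted p 0.0150, 0.0350 and 0.0268). Each also passed on leaving out either mouse of an untreated group: Nfkb2 at -0.52 and -0.52 and Bcl3 at 0.68 and 0.68 without WT untreated replicate 1 or 2, and Nfkbie at -1.05 and -1.05 without ΔNFκB untreated replicate 1 or 2. The remaining 6 members, from -0.26 ± 0.18 for Rel to 0.34 ± 0.21 for Nfkbiz, did not pass.

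Markers of other cells moved in the same comparison. Called lower in ΔNFκB DSS mice were 10 of 10 neutrophil, 7 of 7 fibroblast, 5 of 7 endothelial and 3 of 11 monocyte and macrophage markers, and 5 of 13 epithelial markers were called higher and 1 lower. Of all genes, 11.6% were called lower and 8.29% higher. Fibroblast markers summed to 547 to 690 CPM in ΔNFκB DSS and 1821 to 2783 CPM in WT DSS mice, and endothelial markers summed to 22.3 to 31.4 CPM in ΔNFκB DSS and 100.2 to 120 CPM in WT DSS mice. Their part in the Relb difference was not tested. The 10 B cell markers had adjusted p of 0.288 to 0.881 (edgeR), and their sums were 162 and 3.92 CPM in ΔNFκB DSS and 340 and 145 CPM in WT DSS mice.

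**Figure D3:**
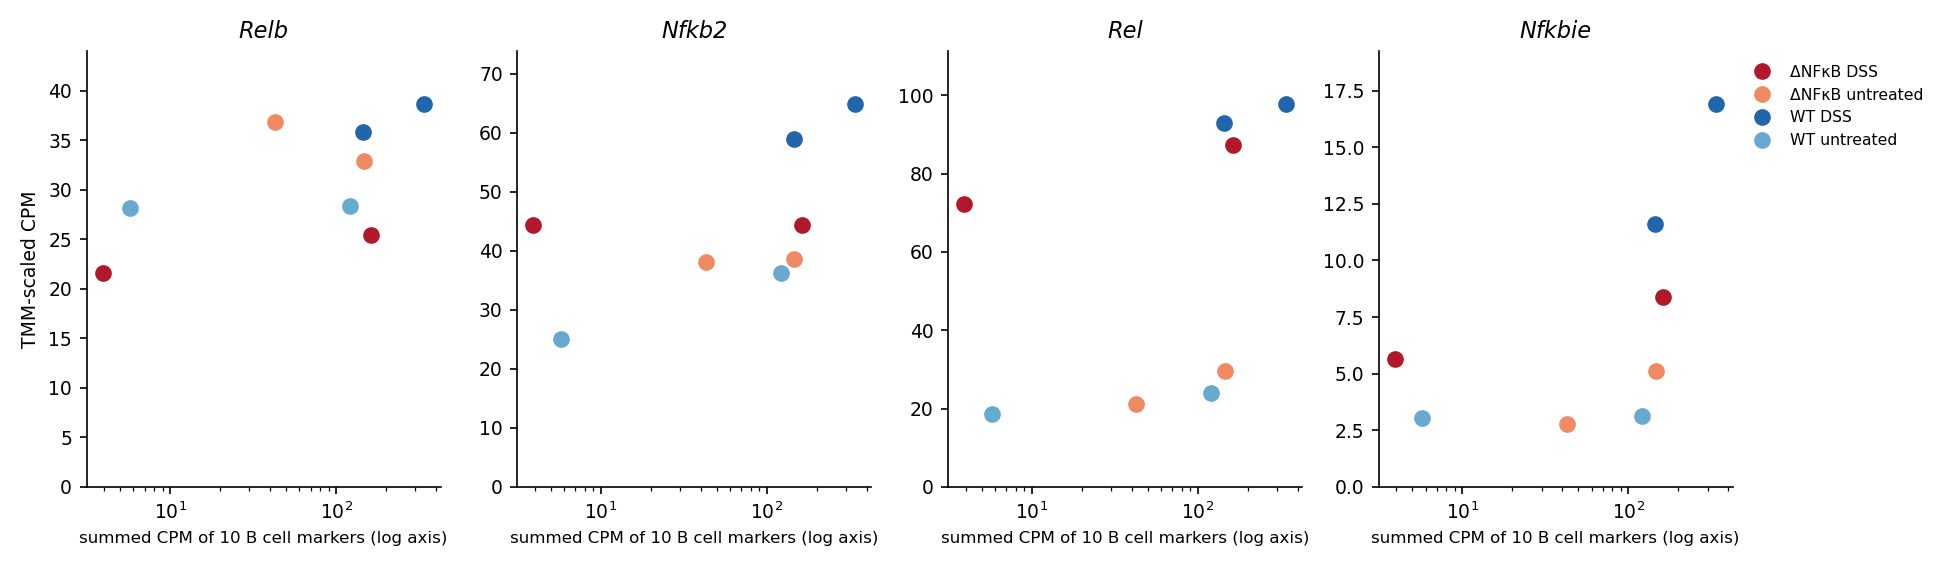
TMM-scaled CPM of Relb, Nfkb2, Rel and Nfkbie (y axes, from 0) against the summed CPM of 10 B cell markers (x axis, log scale), with 1 point per mouse coloured by group. The ΔNFκB DSS mice sit at 162 and 3.92 CPM of B cell markers and at 25.4 and 21.6 CPM of Relb, below both WT DSS mice.

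Without DSS, none of the 10 members passed the test between genotypes (edgeR), nor with DESeq2 or limma-voom. At an unadjusted p under 0.05 there was 1, Relb, with 32.9 and 36.9 CPM in ΔNFκB untreated mice against 28.2 and 28.4 CPM in WT untreated mice (0.30 ± 0.13, p 0.0470, adjusted p 0.305, edgeR). Of all genes, 0.388% passed (0.0399% higher and 0.348% lower in ΔNFκB mice). The untreated mice of the genotypes did not overlap for 3 members, Relb, Nfkb1 and Nfkb2, as for 45.2% of all genes. Values for the members ran from -0.25 for Bcl3 to 0.35 for Nfkbie. Sex was uneven here, with 2 males in the ΔNFκB group and 1 in the WT group.

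Levels of different genes were compared per length, as CPM per kb of exon. Nfkbia was the highest member in every group, at 71.0 ± 11.1 in ΔNFκB DSS, 26.8 ± 5.02 in ΔNFκB untreated, 73.4 ± 6.25 in WT DSS and 29.0 ± 9.14 in WT untreated mice (SD, n = 2 each). Bcl3 followed at 45.7 ± 1.08 in ΔNFκB DSS and 27.9 ± 6.66 in WT DSS mice, and Nfkbiz at 40.7 ± 0.193 in ΔNFκB DSS and 32.2 ± 3.11 in WT DSS mice. In WT DSS mice these 2 levels lay within their spread of each other, and in both untreated groups Nfkbiz ranked above Bcl3. By these lengths Rela led the subunits, at 14.5 ± 0.599 in ΔNFκB DSS and 14.9 ± 0.926 in WT DSS mice, and Nfkbie was the lowest member in every group, at 2.31 ± 0.634 in ΔNFκB DSS and 4.68 ± 1.22 in WT DSS mice. In WT DSS mice Nfkb2 (13.5 ± 0.897) and Rel (12.8 ± 0.443) came next. Both mice lay lower for Nfkb2 (14.1 and 12.9) and for Rel (13.1 and 12.5) than either did for Rela (15.6 and 14.2).

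The make-up of the subunit transcripts was compared between DSS and untreated mice over both genotypes, and none of 6 measures passed after adjustment. Rel took 21.8% of the per-length subunit sum in DSS mice and 9.11% in untreated mice, and Relb took 14.3% in DSS mice and 23.7% in untreated mice (means, n = 4 each). For Rel the shares were 23.3% and 20.8% in ΔNFκB DSS, 11% and 7.51% in ΔNFκB untreated, 21.1% and 21.9% in WT DSS and 8.37% and 9.60% in WT untreated mice. For Relb they were 13% and 11.9% in ΔNFκB DSS, 23.5% and 25.2% in ΔNFκB untreated, 16% and 16.2% in WT DSS and 24.4% and 21.7% in WT untreated mice. A share also depends on the other subunits. The level of Relb itself averaged 9.58 CPM per kb in WT DSS and 7.28 in WT untreated mice. In ΔNFκB mice it averaged 6.05 with DSS and 8.98 untreated. The DSS mice were all female and most untreated mice were male. The ratio of summed Nfkbia, Nfkbib and Nfkbie to summed subunits was 1.57 in DSS mice and 1.0 in untreated mice. The 4 DSS mice and the 4 untreated mice did not overlap for any of these 3 measures, each with exact two-sided permutation p 0.0286, the smallest that 4 against 4 allow, and adjusted p 0.0571 over 6 measures, which is not past 0.05. The shares of Rela, Nfkb1 and Nfkb2 gave adjusted p 0.343, 0.343 and 0.771 in the same exact test. The Nfkb1 share depends on the length used, since its exons cover 12061 bases in all and its longest transcript 4149 bases. With the longest transcripts Nfkb1, not Rela, was the highest subunit in every library (30.0% to 35.2%, against 20.3% to 24.4% for Rela).

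**Figure D4:**
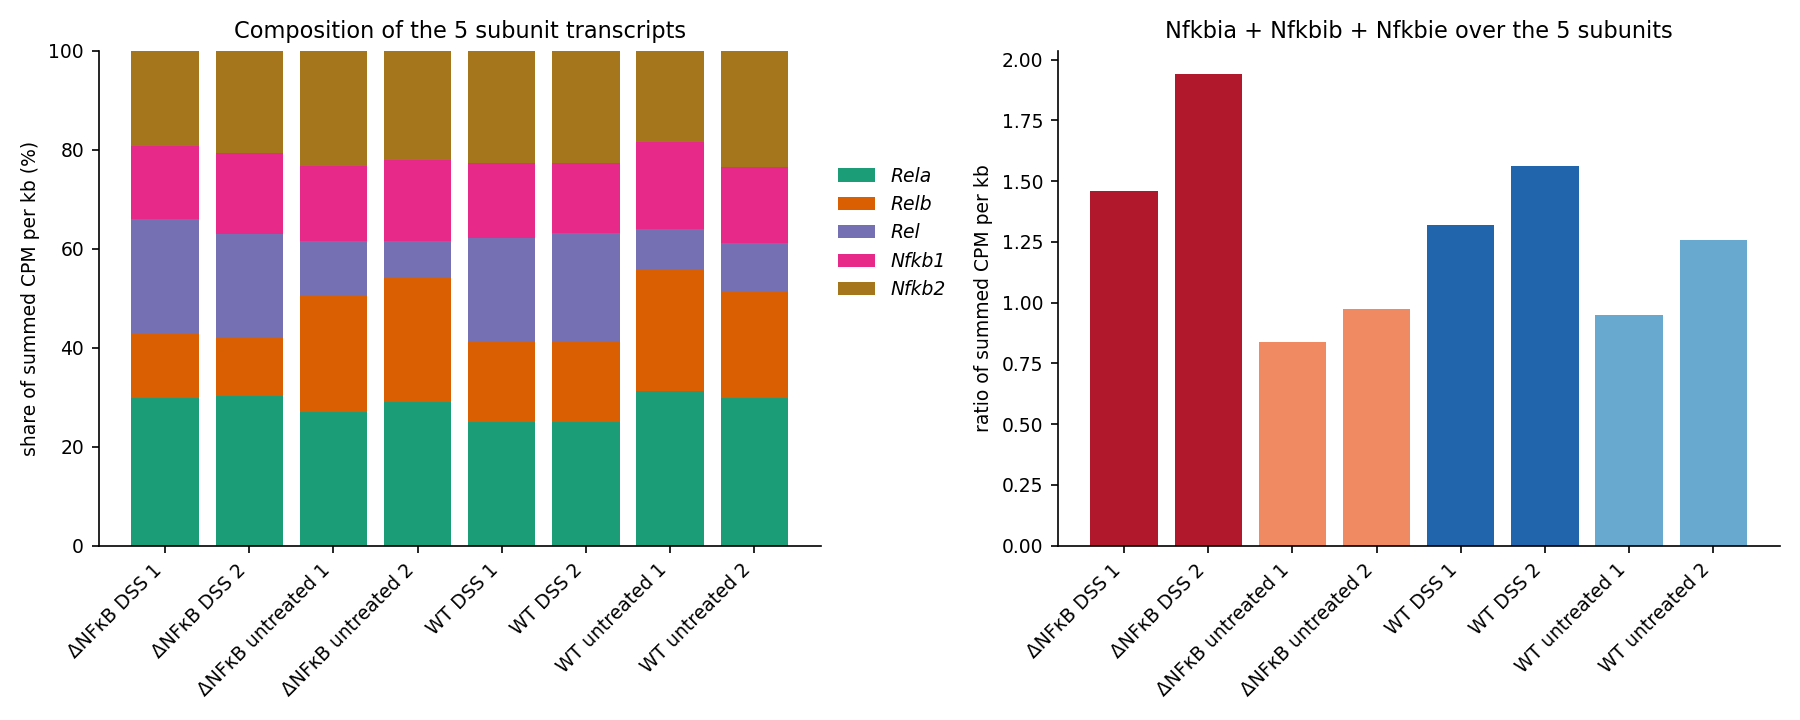
Left, share (%) of each subunit in the summed CPM per kb of the 5 subunits, as stacked bars for the 8 mice; right, ratio of the summed CPM per kb of Nfkbia, Nfkbib and Nfkbie to that of the 5 subunits. Rel takes 20.8% to 23.3% in the DSS bars and 7.51% to 11% in the untreated bars, and the ratio is 1.32 to 1.94 with DSS and 0.836 to 1.26 without.

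Across the 8 mice, which form 4 groups of 2 and share the DSS contrast, the members other than Relb moved together. Pearson r of log2 CPM was 0.60 to 0.98 among these 9 members, highest between Nfkbiz and Bcl3 (0.98) and lowest between Nfkbib and Nfkbie (0.60). Relb correlated at -0.47 to 0.37 with the rest. The genes most like Relb were Ssc5d (0.97), Rab11fip2 (0.97) and Hyi (0.97); those most like Rel were Myh9, Myo1c and Lpgat1 (0.99 each); those most like Nfkbia were Gstp3, Tnfrsf1a, the TNF receptor that signals to NF-κB, and Cxcl5, a neutrophil attractant (0.99 each). Tgfb1, Laptm5 and Prex1 were most like Nfkbie (0.99 each). These are descriptions over 8 mice, with no test.

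Upstream of the members stand the IKK complex and its proximal activators. Of 22 genes, 7 rose and none fell with DSS in ΔNFκB mice, where 16.2% of all genes rose, and 5 rose and none fell in WT mice, where 17.3% of all genes rose. The median log2 fold changes were 0.22 in ΔNFκB and 0.19 in WT mice. Within the complex, Ikbkg, the regulatory subunit NEMO, stood at -0.31 in both genotypes and did not pass (adjusted p 0.0705 in ΔNFκB and 0.0728 in WT mice), and Chuk, which encodes the catalytic IKKα, rose by 0.33 ± 0.11 in ΔNFκB mice and stood at 0.05 ± 0.11 in WT mice (adjusted p 0.729); both were added after their values were seen. Ikbkb, which encodes the catalytic IKKβ, had 89.0 and 89.9 CPM with DSS, against 61.8 and 63.9 CPM untreated, in ΔNFκB mice (0.51 ± 0.11), and 101 and 96.2 CPM with DSS, against 48.1 and 55.2 CPM untreated, in WT mice (0.93 ± 0.11). Rnf31, which encodes the linear ubiquitin ligase HOIP, rose by 0.86 ± 0.12 in ΔNFκB and 0.67 ± 0.12 in WT mice. Myd88, the adaptor of Toll-like and interleukin 1 receptors, rose by 0.90 ± 0.16 in ΔNFκB mice and stood at 0.44 ± 0.16 in WT mice (adjusted p 0.0601). Card9, an adaptor of myeloid cells, stood at 1.35 ± 0.49 in ΔNFκB mice (adjusted p 0.0623) and rose by 2.22 ± 0.46 in WT mice. None of the 22 genes passed the test of a difference between the DSS effects of the genotypes (edgeR), which 17.7% of all genes passed. With upper quartile factors Birc3 (-0.55) and Ikbkb (-0.51) passed it. After DSS, 2 of the 22 were higher in ΔNFκB than in WT mice (Rnf31 0.53 and Irak1 0.41) and 2 lower (Birc3 -0.44 and Birc2 -0.41). Of all genes, 8.29% were higher and 11.6% lower, so both counts are near the background. Each of the 4 calls in the list was lost on leaving out either mouse of either DSS group.

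Of 15 genes listed for the noncanonical branch, 13 were tested. In ΔNFκB mice 1 rose and 1 fell (median 0.29), where 16.2% of all genes rose and 19.2% fell. In WT mice 6 rose and 1 fell (median 0.91), where 17.3% of all genes rose and 18.8% fell. Map3k14 encodes NIK, the kinase that starts this branch. It had 12.2 and 7.21 CPM with DSS, against 8.99 and 6.26 CPM untreated, in ΔNFκB mice (0.35 ± 0.29, adjusted p 0.379), and 16.4 and 15.6 CPM with DSS, against 5.11 and 6.37 CPM untreated, in WT mice (1.47 ± 0.29, adjusted p 0.00600). The difference for Map3k14 was -1.13 ± 0.40 and did not pass (adjusted p 0.0871). Ltbr, the lymphotoxin β receptor, rose by 0.77 ± 0.11 in ΔNFκB and 0.37 ± 0.11 in WT mice (adjusted p 0.00130 and 0.0288). Tnfrsf12a, the TWEAK receptor, fell by 1.04 ± 0.30 in ΔNFκB mice and stood at 0.31 ± 0.29 in WT mice (adjusted p 0.431). The Tnfrsf12a call was lost with a sex term (-1.61) and without ΔNFκB DSS replicate 1 (-1.17) or 2 (-0.88) or ΔNFκB untreated replicate 1 (-0.76). Tnfsf11, which encodes RANK ligand, stood at 0.35 ± 0.65 in ΔNFκB mice (adjusted p 0.706) and rose by 2.93 ± 0.58 in WT mice. Without WT DSS replicate 2 that WT value was 2.45 and the call was lost. Traf3, a brake on NIK, stood at 0.25 ± 0.16 in ΔNFκB mice (adjusted p 0.250) and rose by 0.69 ± 0.16 in WT mice (0.47 without WT DSS replicate 1, adjusted p 0.0797). The DSS effects passed the test of a difference for none of the 13 genes, and for 17.7% of all genes. Adjusted p was 0.0957 for Ltbr, 0.0596 for Tnfrsf12a, 0.0759 for Tnfsf11 and 0.185 for Traf3 (edgeR). Without a count filter Tnfrsf12a (-1.33) and Tnfsf11 (-2.54) passed it, as did Tnfrsf12a with a sex term (-1.66).

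Of 14 other feedback inhibitors, 6 rose and none fell with DSS in ΔNFκB mice (median 0.49), where 16.2% of all genes rose and 19.2% fell. In WT mice 5 rose and none fell (median 0.57), where 17.3% of all genes rose and 18.8% fell. The DSS effects of 2 of the 14, Tnip3 and Irak3, differed between genotypes, a share near the 17.7% of all genes. Zc3h12a, which encodes the RNase Regnase-1, had 123 and 134 CPM with DSS, against 16.9 and 15.2 CPM untreated, in ΔNFκB mice (3.00 ± 0.19), and 91.6 and 108 CPM with DSS, against 12.9 and 19.3 CPM untreated, in WT mice (2.62 ± 0.19). Tnip3, a partner of the deubiquitinase A20, had 158 and 184 CPM with DSS, against 21.1 and 23.7 CPM untreated, in ΔNFκB mice, and 96.9 and 96.2 CPM with DSS, against 42.5 and 77.9 CPM untreated, in WT mice. The DSS effects on Tnip3 differed by 2.26 ± 0.35 (adjusted p 0.00889), and its untreated levels were lower in ΔNFκB than in WT mice without passing the test there (-1.43 ± 0.25, adjusted p 0.0750); it passed with DESeq2 (-1.45), without a count filter (-1.49), with a sex term (-1.80) and without WT untreated replicate 1 (-1.82). Irak3, a brake on Myd88 signalling known from myeloid cells, had 6.04 and 6.08 CPM with DSS, against 4.97 and 3.99 CPM untreated, in ΔNFκB mice, and 17.7 and 24.3 CPM with DSS, against 4.63 and 4.36 CPM untreated, in WT mice. Its difference was -1.79 ± 0.32 (adjusted p 0.0129), lost without ΔNFκB DSS replicate 2 (-1.79, adjusted p 0.0588) or WT DSS replicate 2 (-1.53, adjusted p 0.0509).

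**Figure D5:**
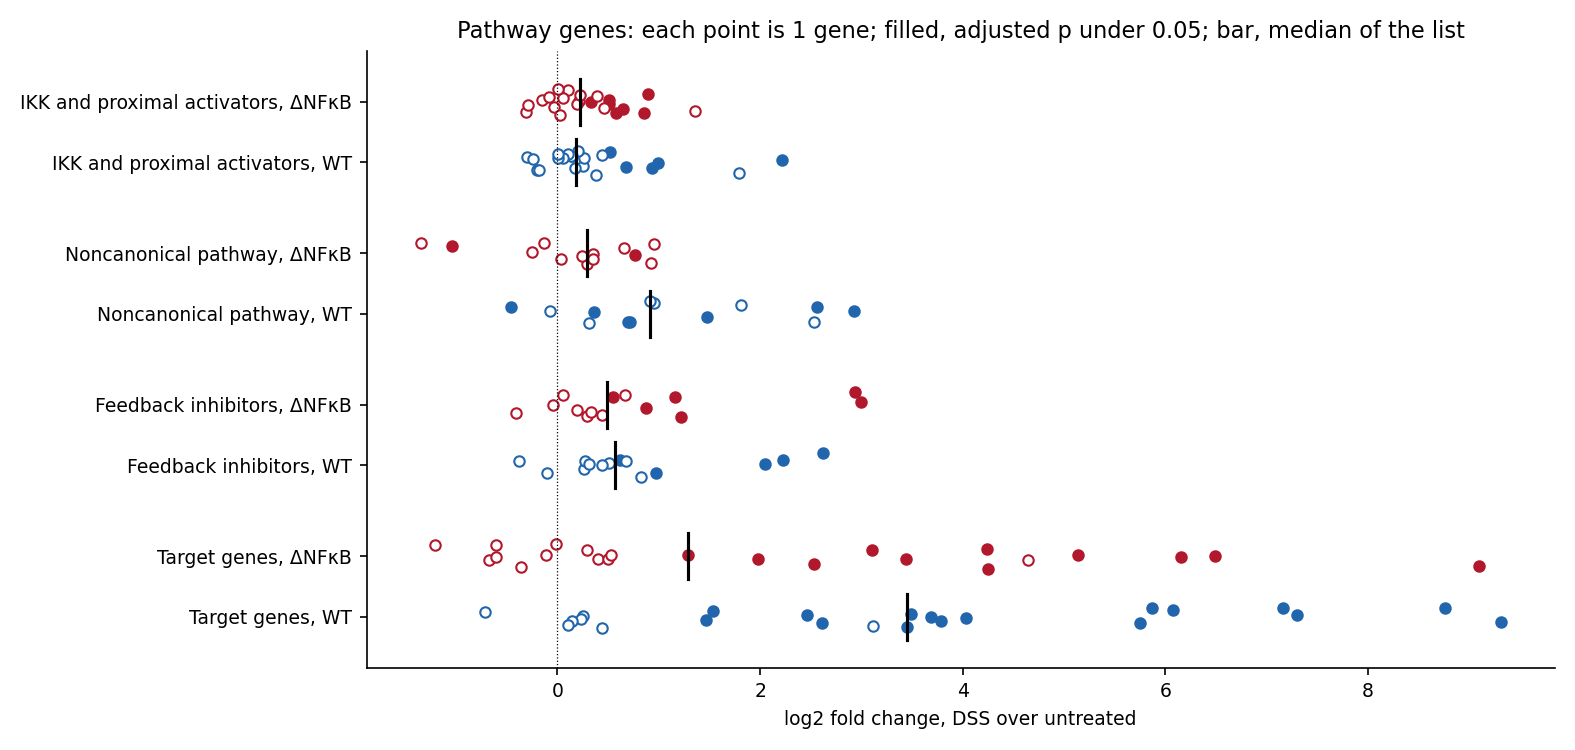
Log2 fold change of DSS over untreated (x axis) for the tested genes of 4 pathway lists (y axis), in ΔNFκB (red) and WT (blue) mice; each point is 1 gene, filled at adjusted p under 0.05, and the bar is the list median. The median of the target genes is 1.29 in ΔNFκB and 3.45 in WT mice, beside -0.04 in ΔNFκB and 0.00 in WT mice for all genes.

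Of 25 NF-κB target genes listed, 23 were tested; with DSS, 11 rose and none fell in ΔNFκB mice (16.2% and 19.2% of all genes; median 1.29, or 1.10 with Il6, at 0 counts in ΔNFκB untreated mice, set to its bound), and 16 rose and none fell in WT mice (17.3% and 18.8% of all genes; median 3.45). After DSS, 10 of the 23 were called lower in ΔNFκB than in WT mice, as were 11.6% of all genes. Cxcl5 had 125 and 201 CPM with DSS, against 1.42 and 2.20 CPM untreated, in ΔNFκB mice, and 141 and 204 CPM with DSS, against 1.04 and 3.89 CPM untreated, in WT mice. The DSS mice of the genotypes overlapped for Cxcl5. Ptgs2, which encodes cyclooxygenase 2, had 6.86 and 11.3 CPM with DSS, against 13.5 and 9.92 CPM untreated, in ΔNFκB mice, and 61.9 and 139 CPM with DSS, against 8.30 and 7.38 CPM untreated, in WT mice. After DSS it was lower in ΔNFκB mice (log2 fold change -3.47 ± 0.41, adjusted p 0.00275). Cxcl2, a neutrophil attractant, had 6.76 and 11.9 CPM in ΔNFκB DSS mice and 54.0 and 49.7 CPM in WT DSS mice (-2.48 ± 0.31). The median of the list after DSS was -1.07, and 0 of the 23 were called higher; the neutrophil markers named above were lower in the same comparison, and their part was not tested.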

How the data were processed

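Total RNA of distal colon was sequenced as paired reads by the authors with an Illumina TruSeq Total RNA kit, per the labels' protocols. The submitters' processing notes name HISAT2 2.1, SAMtools 1.8, Subread 1.6.2, featureCounts and the mm10 genome; the sources used here give neither the annotation nor the strand setting. The tables deposited by the authors hold expected counts per gene with no normalization. By exact equality, 18.8% of values above 0 were fractional, although whole counts had been planned for, so they were rounded. Lines sharing a symbol were added up, which concerned 115 symbols.

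The members, lists and tests were chosen with earlier results of these data known. Groups came from the labels. Genes were filtered with filterByExpr, scaled with TMM factors (0.882 to 1.15) and fitted as 4 group means with edgeR's quasi-likelihood test (two-sided, Benjamini-Hochberg adjusted over 17529 genes, threshold 0.05). The biological coefficient of variation was 17.1%, with 4 residual degrees of freedom. SEs were taken as the size of the log2 fold change divided by the root of its F. The exact permutation test of 2 against 2 mice cannot go below p = 0.333 and was not used between single groups. The labels do not say how mice were kept or processed together, so p-values measure the spread between these samples. CPM are counts over TMM-scaled library sizes, and a median at bounds sets a group with 0 counts to a floor of 3 counts over the group; floors cover counting error only. Exon lengths and overlaps came from the mm10 annotation supplied, promoters from RefSeq.

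All members were tested in every comparison. Between genotypes, several that did not pass are given only as a range. Up to 4 genes of each pathway list were chosen by smallest p. Genes like a member are the 3 with the highest r among genes with a mean log2 CPM above 1. Results were recomputed with other scaling (RLE, upper quartile), other tools (limma-voom, DESeq2), other count filters (none, or 2 libraries reaching a CPM of 1), the table by Ensembl ID, a sex term, a block for the replicate number, a fit to the compared groups alone, and without antigen receptor, mitochondrial and ribosomal RNA genes. Each library was also left out in turn, where the lone mouse of a group is assumed to vary like the others. Make-up of the subunits was compared with an exact permutation test of 4 against 4 mice. The fit was tested on simulated data. Software was edgeR 4.0.16, DESeq2 1.42.0 and limma 3.58.1 in R 4.3.3.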

Additional observations from a re-analysis of the deposited data

Results flagged for a closer look

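The DSS effects of 8 named genes differed between ΔNFκB and WT mice by the fitted difference of log2 fold changes (edgeR's quasi-likelihood test, adjusted over all genes, 2 mice a group). Of all genes, 17.7% passed this test. So did 2 of 10 members, 2 of 14 feedback inhibitors and 5 of 23 target genes, of which up to 4 are named. None of the 22 IKK and proximal genes or the 13 noncanonical genes passed. Named among the members were Relb, at -0.96 (adjusted p 0.0152), and Nfkb2, at -0.80 (adjusted p 0.0490). Among the feedback inhibitors Tnip3 differed by 2.26 (adjusted p 0.00889) and Irak3 by -1.79 (adjusted p 0.0129). Among the target genes Ptgs2 differed by -4.05 (adjusted p 0.00763), Ier3, an immediate early gene, by -2.11 (adjusted p 0.0143), Lcn2, which encodes the iron-binding lipocalin 2, by -3.34 (adjusted p 0.0344), and Traf1, an adaptor of TNF receptors, by -2.07 (adjusted p 0.0376). Without ΔNFκB DSS replicate 2 the calls of Ier3 (-2.32), Lcn2 (-3.11) and Traf1 (-1.75) were lost, as were those of Relb (-0.85), Irak3 (-1.79) and Nfkb2 (-0.80). Further single libraries ended calls too. Relb was lost without WT DSS replicate 1 (-0.89), Irak3 without WT DSS replicate 2 (-1.53), and Nfkb2 without ΔNFκB DSS replicate 1 (-0.78), either ΔNFκB untreated replicate (-0.81 and -0.82) or either WT DSS replicate (-0.72 and -0.86). Ier3 was lost without ΔNFκB untreated replicate 1 (-1.83) or WT DSS replicate 2 (-1.82). Lcn2 was lost without ΔNFκB DSS replicate 1 (-3.61), ΔNFκB untreated replicate 1 (-2.48), WT DSS replicate 2 (-2.52) or either WT untreated replicate (-2.99 and -3.93). With all libraries kept, the Lcn2 call was lost with limma-voom (-3.12) and with a sex term (-2.97). The Nfkb2 call was lost with RLE factors (-0.79), DESeq2 (-0.79), a replicate block (-0.81) and a sex term (-0.56). Traf1 was lost without ΔNFκB DSS replicate 1 (-2.46), ΔNFκB untreated replicate 1 (-1.43), WT DSS replicate 1 (-1.79), WT DSS replicate 2 (-2.29) or either WT untreated replicate (-2.21 and -1.96). Ptgs2 and Tnip3 kept their calls under every alternative run. Neutrophil markers differed in the same comparison (6 of 10 called, all negative, as were 9.06% of all genes), and their part in these values was not tested.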

How the results depend on the processing

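With 2 mice a group, a call rests on 1 estimate of spread shared by all groups, and leaving out 1 mouse moved many. The counts of genes past the threshold without 1 library ran from 3373 to 6546 for DSS in ΔNFκB mice, 3299 to 6226 for DSS in WT mice, 476 to 3793 for genotype after DSS, 0 to 207 for genotype without DSS and 485 to 3681 for the difference of DSS effects. Those of members ran from 5 to 8, 6 to 9, 0 to 3, 0 to 0 and 0 to 4 in that order. A sex term gave 3359 genes and 5 members for DSS in ΔNFκB mice, against 6201 and 8, and 3 members after DSS. For genotype after DSS, 1 member became 2 with upper quartile factors, DESeq2 or the replicate block, 3 without a count filter and 4 with only the groups compared. For genotype without DSS, 68 genes became 266 with DESeq2, 325 without a filter, 176 with a sex term, and 0 with the replicate block or only the groups compared. For the difference, 2 members became 1 with RLE factors and 1 with the replicate block. The cause was not tested.

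The labels do not say whether replicate numbers pair the mice. Deviations of same-numbered mice from their group means correlated at -0.13 to 0.24. These values cannot show whether same-numbered mice were handled together. Scaling moved the median of all genes by less than 0.1 throughout.

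Signs changed in 20 of 2719 recomputed values, none of them for a gene past the threshold in that comparison. Besides values of named genes, the 2719 include counts of pathway genes past the threshold, which have no sign. For genotype after DSS, values without 1 library ran from -0.25 to 0.12 for Nfkbia and -0.093 to 0.040 for Rela. For genotype without DSS they ran from -0.011 to 0.15 for Rela, -0.042 to 0.44 for Rel, -0.44 to 0.22 for Nfkbia, -0.13 to 0.18 for Nfkbib, -0.19 to 0.70 for Nfkbie, -0.52 to 0.23 for Nfkbiz and -0.60 to 0.15 for Bcl3, and Nfkbib was -0.0095 with no filter and -0.10 with a sex term. For the difference they ran from -0.31 to 0.34 for Nfkbia, which was -0.025 with upper quartile factors, and -0.0089 to 0.42 for Nfkbib. With a sex term the DSS effect on Otud7b in ΔNFκB mice was -0.12. The Nfkb2 share of the subunits, DSS minus untreated, was 0.096 percentage points with the longest transcript and ran from -1.63 to 0.22 without 1 library. Nfkbie, at 34 to 175 reads a library, had SEs of 0.33 to 0.49, which limits the differences detectable for it.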
